A study of Arabidopsis thaliana with 28 samples.

Results

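En-Spm elements, also called CACTA elements, are DNA transposons that move by cut and paste with the help of a transposase and carry terminal inverted repeats that begin with the bases CACTA. In Arabidopsis thaliana most copies lie in heterochromatin, where DNA methylation and methylation of lysine 9 of histone H3 hold them silent, and CACTA elements are known to be transcribed and to move in mutants that lose this silencing. The members were taken by name: they are the families of the deposited table whose name starts with ATENSPM, and there are 7 of them among 83 named families. All 7 carry the superfamily En-Spm and the class DNA in the table's own annotation. They are ATENSPM7, ATENSPM1A, ATENSPM11, ATENSPM9, ATENSPM6, ATENSPM5 and ATENSPM10. Which of them encode their own transposase is not stated in the sources used here.

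RNA came from the aerial parts of 6 day-old seedlings grown under 16 h of light and 8 h of dark. The temperature was 21 °C, and there were 3 days of stratification. Wild-type Col-0 gave 3 libraries and the mutant caa39, in the same growth conditions, gave 3. The caa39 line carries a mutation in the A subunit of topoisomerase VI, a type II topoisomerase that plants share with archaea and use in endoreduplication. The study concerns the part of this enzyme in limiting the spread of heterochromatin, as its title says. Each family pools reads of copies dispersed over the genome, so a change of many copies and a change of a single copy cannot be told apart. Fewer expressing cells and less RNA per cell cannot be told apart in these whole aerial parts either.

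Library values were solved from the deposited group means. The letters a, b and c rank the libraries of a genotype by size factor and do not stand for replicate numbers. A normalised read is a read divided by the library's size factor, and 1 read was worth between 0.732 normalised reads in caa39 library a and 1.22 in wild-type library c. The table's 84 entries, which include 1 of unassigned elements, held between 20791 and 31566 reads per library. These totals cover the listed entries and are not sequencing depths. The table lists only entries with an adjusted p below 0.05, so all 7 families were listed because they differed between these libraries. By the ranks that the adjusted p-values imply, 35.7% of all tests behind the table lay at or below the p of its last entry. The implied number of tests, 23918, far exceeds the 84 entries. That percentage can therefore not be read as the share of transposable element families that were called. Marker genes of the tissue and the mutated gene were not analysed here.

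Transcripts of 6 of the 7 En-Spm families were higher in caa39 and those of ATENSPM10 were lower, in the authors' deposited table. Among all 83 listed families 48.2% were higher and 51.8% lower. The 6 rises ran from 2.80-fold for ATENSPM5 to 16.8-fold for ATENSPM7, and each was at least 2-fold, which held for 36.1% of the listed families in the upward direction. ATENSPM10 stood at 0.518 of its wild-type level. The median log2 fold change of the 7 families was 2.44 in the authors' deposited table, beside −0.35 over all listed families. The libraries of the 2 genotypes did not overlap in any of the 7 families, as in 98.8% of the listed families. In limma, a linear model of log2 values whose variances are shared across families, all 7 passed an adjusted p of 0.05. This was so for 97.6% of the listed families, and 47.0% passed as higher in caa39. Since the list was selected on these libraries, the limma calls are not independent evidence.

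**Figure D1:**
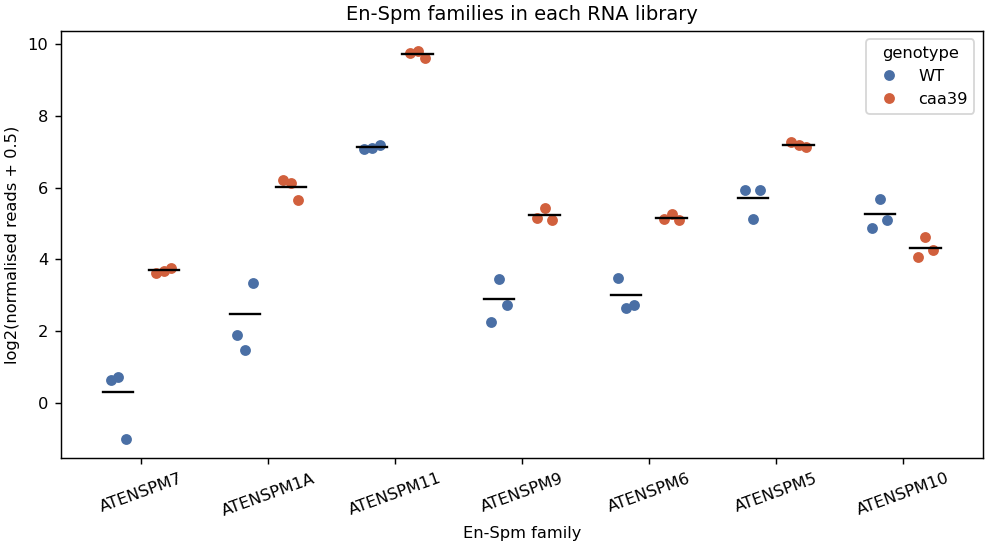
Each point is 1 RNA library, plotted as log2 of its normalised reads plus 0.5, for the 7 En-Spm families in the wild type (WT) and caa39; bars are the log2 of the genotype's mean plus 0.5. The caa39 points lie above all wild-type points in 6 families and below them in ATENSPM10.

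ATENSPM7 was close to silent in the wild type. In wild-type libraries a, b and c it had 1, 1 and 0 reads, or 1.06, 1.15 and 0 normalised reads. In caa39 it had 16, 15 and 12 reads, or 11.7, 12.4 and 13.1 normalised reads. The 3 caa39 libraries were thus close together, and the lowest of them was 10.2 times the highest wild-type library. The reads of each genotype over its summed size factors gave a ratio of 16.2 (exact 95% interval 4.23 to 138, for counting error only). The limma log2 fold change on log2(normalised reads + 0.5) was 3.57 ± 0.49 (SE; limma adjusted p = 0.00106). With 2 wild-type reads this value hangs on the pseudocount: it was 4.57 with 0.1 and 3.03 with 1.

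ATENSPM1A showed the next largest deposited rise. There were 3, 2 and 8 reads in the wild type (libraries a to c) and 100, 84 and 46 reads in caa39, which is 3.18, 2.30 and 9.72 normalised reads against 73.2, 69.5 and 50.3. Wild-type library c was high and caa39 library c low for their genotypes, and the lowest caa39 library was still 5.18 times the highest wild-type one. The mean went from 5.07 ± 4.05 to 64.3 ± 12.3 normalised reads (SD, n = 3 each), and the ratio of the means, 12.7, became 23.5 without wild-type library c. The limma log2 fold change was 3.76 ± 0.51 (SE; limma adjusted p = 0.00106).

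ATENSPM11 carried most En-Spm reads in either genotype. It had 134.6, 138 and 145 normalised reads in the wild type (libraries a to c), on 366 reads in all. In caa39 (libraries a to c) it had 868, 905 and 784, on 2997 reads. The spread within a genotype was small, with an SD of 3.65% of the wild-type mean and 7.23% of the caa39 mean, and the nearest libraries of the genotypes were 5.42-fold apart. In the authors' deposited table its rise was 6.13-fold (adjusted p = 3.40e-100), and 1 other family of the 83 had a smaller p. The limma log2 fold change was 2.61 ± 0.09 (SE; limma adjusted p = 1.06e-05), the smallest SE among the 7. By mean normalised reads ATENSPM11 ranked 30 of 83 in the wild type and 3 in caa39. These ranks are of reads per family, not per length of sequence or per copy.

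ATENSPM9 and ATENSPM6 resembled each other in level and in fold. ATENSPM9 had 4.24, 10.4 and 6.08 normalised reads in the wild type (libraries a to c), against 35.1, 43.0 and 33.9 in caa39. ATENSPM6 had 10.6, 5.76 and 6.08 normalised reads in the wild type, against 34.4, 38.0 and 33.9 in caa39. In both families every caa39 library was more than 3 times any wild-type library, the nearest ratios being 3.27 and 3.20. On 18 wild-type and 131 caa39 reads ATENSPM9 rose 5.42-fold, and on 20 and 124 reads ATENSPM6 rose 4.74-fold, in the authors' deposited table. The limma log2 fold changes were 2.43 ± 0.32 (SE; limma adjusted p = 0.000971) for ATENSPM9 and 2.22 ± 0.24 (SE; limma adjusted p = 0.000503) for ATENSPM6.

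ATENSPM5 had the smallest rise. It had 60.4, 34.6 and 60.8 normalised reads in the wild type (libraries a to c), against 153, 145 and 139 in caa39. The wild-type spread came from library b, which was low, while the SD of the caa39 libraries was 4.86% of their mean. The mean went from 51.9 ± 15.0 to 146 ± 7.08 normalised reads (SD, n = 3 each). The limma log2 fold change was 1.52 ± 0.24 (SE; limma adjusted p = 0.00182).

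ATENSPM10 was the exception in direction. It had 28.6, 50.7 and 34.0 normalised reads in the wild type (libraries a to c), on 99 reads, against 16.1, 24.0 and 18.6 in caa39, on 68 reads. The genotypes were separated by little: the highest caa39 library stood at 0.838 of the lowest wild-type library. The fall of 48.2% from 37.8 ± 11.5 to 19.6 ± 4.02 normalised reads (SD, n = 3 each) came with the largest adjusted p of the authors' deposited table (0.0499), so this family lay just inside its limit. In limma the log2 fold change was −0.91 ± 0.26 (SE; limma adjusted p = 0.0164). That call was lost when caa39 library a was left out (log2 fold change −0.78, limma adjusted p = 0.0514) and when caa39 library c was (−0.88, limma adjusted p = 0.0508). Scaling the libraries to their listed reads moved the median of all families by 0.31 on the log2 scale and left ATENSPM10 at −0.61, short of the threshold as well (limma adjusted p = 0.0620).

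**Figure D2:**
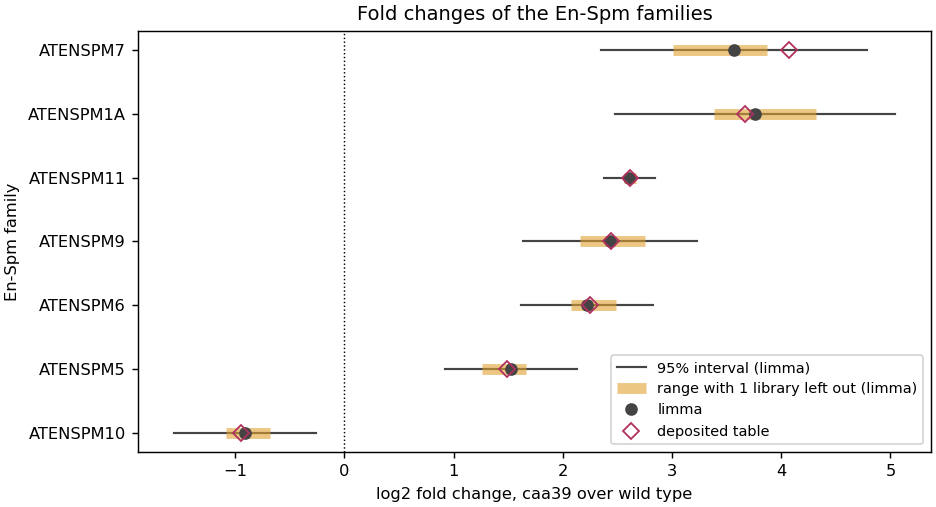
Log2 fold change of caa39 over the wild type for each En-Spm family: filled circles with lines are limma estimates with 95% intervals, wide bars the range of the limma estimate with 1 library left out, and open diamonds the deposited values. The estimate and its interval lie above 0 in 6 families and below 0 in ATENSPM10, and the deposited value and limma differ most in ATENSPM7.

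Whether the families changed by different amounts was tested on the log2 ratio of a family to each other listed family within each library, again with 0.5 added to the normalised reads. Of the 21 pairs of En-Spm families 10 differed in limma at an adjusted p of 0.05, counting a pair by the larger of its 2 adjusted p-values. The same 10 pairs passed when the limma estimates of the 2 families were compared with their combined SE. This was adjusted over all 3403 pairs of listed families, of which 75.3% passed, a larger share than among the En-Spm pairs. Those pairs include families that changed in the same and in opposite directions. ATENSPM10 differed from each of the other 6 families, by 2.43 to 4.67 on the log2 scale. The upper end, ATENSPM1A against ATENSPM10, was 4.06 without wild-type library b and 5.28 without wild-type library c. The largest adjusted p among these 6 pairs was 0.000714 in the ratio fit (limma) and 0.00144 in the combined-SE comparison of limma estimates. Every family was listed because it differed between these libraries, ATENSPM10 as lower and the other 6 as higher. A difference between ATENSPM10 and each of the others was therefore largely set by the listing. The p-values of these pairs are not independent evidence.

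Among the 6 families that rose, 4 of 15 pairs differed. The share among all pairs of listed families that rose was not computed. All 6 were listed for their rise, and a family with few reads needs a larger fold to be listed. The deposited overall mean was 6.58 in ATENSPM7, 21.5 in ATENSPM6, 34.7 in ATENSPM1A, 98.7 in ATENSPM5 and 496 in ATENSPM11. The p-values of these pairs are therefore not independent evidence either. ATENSPM5 rose less than ATENSPM11, by 1.09 on the log2 scale with a combined SE of 0.26 (limma ratio-fit adjusted p = 0.0116, combined-SE adjusted p = 0.0107). It rose less than ATENSPM1A, by 2.24 with a combined SE of 0.56 (limma ratio-fit adjusted p = 0.00227, combined-SE adjusted p = 0.0134). It also rose less than ATENSPM7, by 2.04 with a combined SE of 0.54 (limma ratio-fit adjusted p = 0.00816, combined-SE adjusted p = 0.0162). ATENSPM6 rose less than ATENSPM1A by 1.54 with a combined SE of 0.56. That pair was at the limit (limma ratio-fit adjusted p = 0.0378, combined-SE adjusted p = 0.04998). Of these 4 pairs, ATENSPM1A against ATENSPM5 was the only one to pass in all 9 settings of the ratio fit. ATENSPM11 against ATENSPM5 lost its call without wild-type library a (limma adjusted p = 0.0534) and without caa39 library b (limma adjusted p = 0.0529). ATENSPM7 against ATENSPM5 lost it with caa39 library b left out (limma adjusted p = 0.0512), and its difference was 1.35 without wild-type library c and 3.04 with a pseudocount of 0.1. ATENSPM1A against ATENSPM6 lost it with a pseudocount of 0.1 (limma adjusted p = 0.0715) and without any single library other than wild-type library c (limma adjusted p from 0.0747 to 0.231). Without wild-type library c that difference was 2.21. The other 11 pairs were not separated. For ATENSPM11 and ATENSPM9 the difference was 0.18 with a 95% interval of −0.66 to 1.01, and for ATENSPM1A and ATENSPM7 it was 0.19 with an interval of −1.57 to 1.96.

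**Figure D3:**
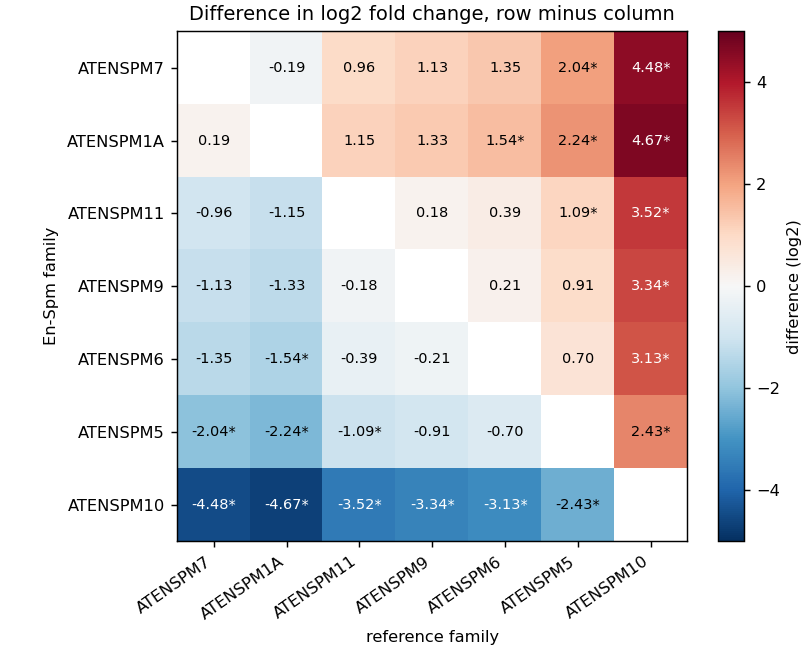
Each cell is the difference in limma log2 fold change (caa39 over the wild type) between the row family and the column family, and a star marks pairs that passed in both the ratio fit and the combined-SE comparison. All cells of ATENSPM10, which was listed as lower, carry a star, against 4 of the 15 pairs among the other 6 families, listed as higher.

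Together the 7 families had 229, 211 and 215 reads in the wild type (libraries a to c), against 1628, 1495 and 981 in caa39. This was 0.858%, 0.834% and 0.938% of the listed reads in the wild type, against 5.16%, 5.37% and 4.72% in caa39. The widest Wilson 95% intervals of these shares reached 1.07% in the wild type and down to 4.44% in caa39, so no caa39 library came near a wild-type one. Among the 27 listed families of the DNA class the En-Spm share of reads went from 4.46% ± 0.66 to 21.5% ± 1.39 (SD, n = 3 each). The other 20 families of that class together went from 5403 ± 748 to 4256 ± 76.0 normalised reads (SD, n = 3 each). Part of the rise in share thus came from fewer reads of those families. The sums describe families that were listed for their change and carry no test.

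The gain was uneven. Of the 936 normalised reads that the 6 rising families added between the genotype means, 76.2% were of ATENSPM11, 10.0% of ATENSPM5 and 6.33% of ATENSPM1A, while ATENSPM9, ATENSPM6 and ATENSPM7 added 3.25%, 2.99% and 1.25%. The make-up of the summed En-Spm reads shifted accordingly. ATENSPM11 went from 55.9% ± 0.85 to 73.0% ± 0.17 of the sum and ATENSPM1A from 1.99% ± 1.51 to 5.48% ± 0.74 (SD, n = 3 each). ATENSPM10, the family that fell, went from 15.2% ± 4.92 to 1.67% ± 0.30, and ATENSPM5, although it rose, from 20.8% ± 5.75 to 12.5% ± 0.69 (SD, n = 3 each). The shares of ATENSPM9 and ATENSPM6 overlapped between the genotypes, at 1.75% to 4.27% and 2.33% to 4.37% in the wild type against 2.95% to 3.48% and 2.89% to 3.16% in caa39. In caa39 the 3 libraries had nearly the same make-up, with ATENSPM11 at 72.9%, 73.2% and 73.1%.

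**Figure D4:**
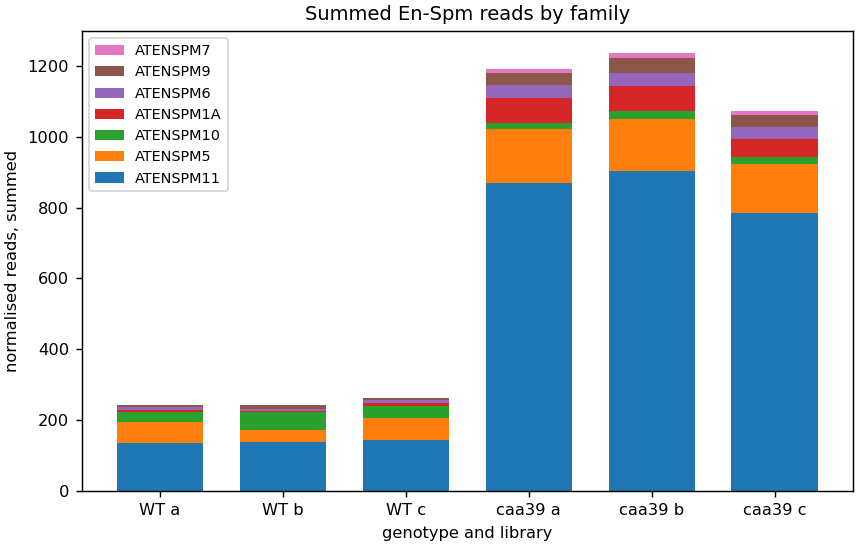
Stacked bars give the normalised reads of each En-Spm family in the 3 wild-type (WT) and 3 caa39 libraries. The sum lies between 243 and 261 in the wild type and between 1073 and 1236 in caa39, and ATENSPM11 is the largest layer in every library.

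The other listed families of the DNA class numbered 20, of which 10 rose and 10 fell in the authors' deposited table, with a median log2 fold change of 0.09. The annotation gives Helitrons a class of their own, so they are not among these. MuDR, the superfamily with the most listed DNA-class members, had 7 that rose and 4 that fell with a median of 0.88, and hAT had 1 and 3 with a median of −0.86. Harbinger and the unplaced DNA families had 1 each way, and the single Pogo family fell. Since the families of each superfamily were listed for significance and some superfamilies hold few, these counts describe the list and were not tested against En-Spm. The 3 other DNA-class families with the most reads were ATHAT10, of the hAT superfamily, and ATMU10 and VANDAL20, of MuDR. ATHAT10 and ATMU10 had folds of 0.370 and 0.644 in the authors' deposited table, while VANDAL20 rose 7.87-fold. The wild-type level of ATHAT10 was uneven, with 1462, 2953 and 1442 normalised reads in libraries a to c.

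**Figure D5:**
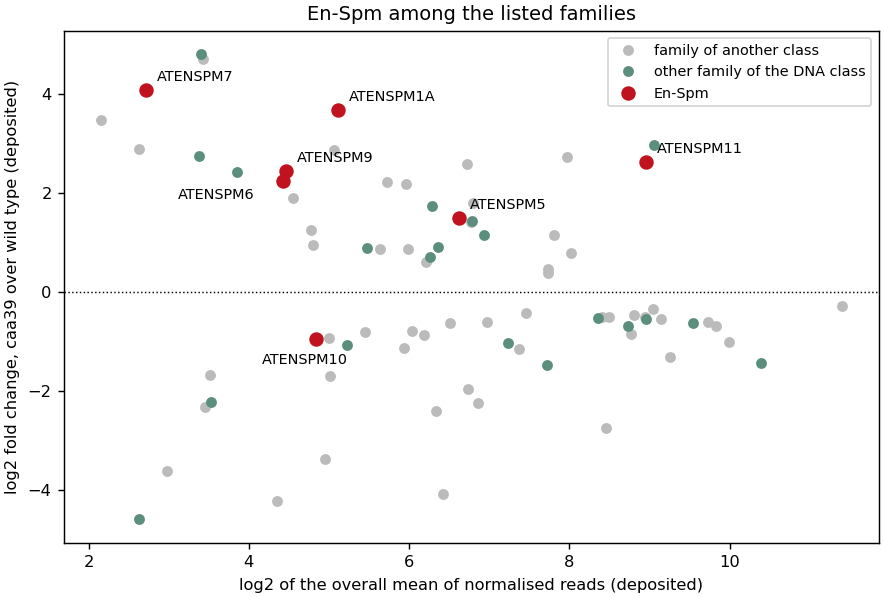
Deposited log2 fold change of caa39 over the wild type against the log2 of the deposited overall mean for 79 listed families, leaving out 4 whose deposited wild-type mean is contradicted by the overall mean. Of the 7 En-Spm families 6 lie above 0, from ATENSPM7 at a log2 mean of 2.72 to ATENSPM11 at 8.95, and ATENSPM10 lies below.

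The listed family outside En-Spm with the most similar levels was found for each member from the distance between log2(mean + 0.5) in the wild type and in caa39, which rests on 2 group means. ATENSPM11 was nearest to VANDAL20 (distance 0.26), which went from 119.5 ± 8.92 to 941 ± 46.1 normalised reads (SD, n = 3 each). ATENSPM5 was nearest to ATCOPIA23, a Copia retroelement family (distance 0.24), with 59.7 ± 3.15 and 159.6 ± 2.08 (SD, n = 3 each). ATENSPM10 was nearest to HELITRONY1A, a Helitron family (distance 0.23), with 42.1 ± 6.55 and 22.1 ± 0.24 (SD, n = 3 each). The matches of the 4 members with the lowest wild-type means were looser. ATENSPM7 lay nearest to ATCOPIA86 (0.57) and ATENSPM1A to ATGP10, a Gypsy retroelement family (0.63). ATENSPM9 and ATENSPM6 shared RathE2_cons (0.49 and 0.38). The nearest families thus came from 5 other superfamilies of the annotation.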

How the data were processed

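The table compares stranded mRNA libraries of 3 wild-type Col-0 and 3 caa39 samples, grouped by title. The deposited signal of a group is the authors' mean of read counts divided by size factors, the deposited ratio is caa39 over the wild type, and the deposited log2 value its logarithm. Each deposited p-value comes from the authors' test, with its adjusted value. FastQC 0.10.1, Bowtie2, edgeR 1.12.0 and TAIR10 are named, without roles, per the submitters' processing notes. The sources used here do not give how reads with several matches were assigned, and related families may share reads.

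The means carry 15 digits, so each was solved as a sum of whole reads of 3 libraries times constants. Size factors between 0.5 and 2 were considered. A set of them was kept only if every mean had exactly 1 solution (78 distinct wild-type and 84 caa39 means, relative tolerance 1e-14, absolute 2e-13). Sets with subdivided constants, judged from the determinants of the solved reads, were dropped. This left 1 set per genotype. No mean tried again after a small shift was solved. Size factors were 0.943, 0.868 and 0.823 for the wild type, against 1.37, 1.21 and 0.914 for caa39. In 4 entries outside En-Spm the deposited wild-type mean of 1 was read as 0, as the overall mean requires. Unassigned elements (28.3% of listed reads) stayed out of the tests. The number of tests, 23918, was inferred from ratios of adjusted to raw p-values, which gave whole ranks in 74 of 84 entries (relative tolerance 1e-08).

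limma 3.58.1 (R 4.3.3) was run two-sided on log2(normalised reads + 0.5) over all 83 families with Benjamini-Hochberg adjustment. Ratios of families were fitted in the same way with each En-Spm family as reference, adjusted over the 82 others. The rows of such a fit share the noise of their reference, which can make its p-values too small. The combined-SE comparison over all pairs was therefore added after seeing the data. It used the limma estimates and SEs, but its p-values were computed outside limma. It treated the estimates of a pair as independent, although both families were measured in the same libraries. The exact interval of ATENSPM7 and the Wilson intervals cover counting error only. The intervals of limma fold changes and of pair differences rest on the spread between libraries. Solver and fits were checked on simulated data. Python 3.11.15, numpy 2.4.6, scipy 1.17.1, pandas 2.3.3 and matplotlib 3.10.9 were used. Named families are all ATENSPM entries, the nearest outside family of each, and the 3 other DNA-class families with the most reads. Members and lists were chosen with earlier results of these data known. Chromatin and bisulfite samples of the series were not used here.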

Additional observations from a re-analysis of the deposited data

How the results depend on the processing

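The deposited calls of the 7 En-Spm families became 6 at an adjusted p below 0.01, at a 2-fold minimum (both without ATENSPM10) and at an overall mean of at least 20 (without ATENSPM7). Of all 83 listed families 51 changed at least 2-fold in either direction and 67 had an overall mean of at least 20. The number of listed families below 0.01 is not given here, so these counts describe no trait particular to En-Spm. In limma 66 of 69 alternative estimates of single families kept direction and call, 0 turned, and ATENSPM10 accounted for the 3 that lost the call. Over the listed families limma called 81, and from 66 to 81 under the alternatives, the lower end with 67 families tested. With libraries scaled to listed reads it called 69 of the 83, and ATENSPM10 was among those not called. The ratio of the summed En-Spm reads was 4.69, between 4.55 and 4.88 with 1 library left out, 2.86 without ATENSPM11 and 5.80 with libraries scaled to listed reads. The first of these is lower because ATENSPM11, with a 6.13-fold rise, leaves the sum, and the second follows a scaling that moved single En-Spm families up by 0.23 to 0.31 (log2). Of the 21 pairs 10 differed, 9 with a pseudocount of 0.1, 10 with 1, and from 7 to 13 when 1 library was dropped. In all 9 settings of the ratio fit 7 pairs passed: the 6 with ATENSPM10, and ATENSPM1A against ATENSPM5. The pairs with ATENSPM10 set a family listed as lower against families listed as higher, so their passing was largely set by the listing. ATENSPM1A and ATENSPM5 were both listed for their rise, so that pair is not independent evidence either. No paired analysis was possible because the solved libraries carry no replicate numbers. Few reads limit ATENSPM7 in the wild type, where the 3 libraries held 2 reads.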

Other observations

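The spread between wild-type libraries was set beside the SD that counting alone would give at the same mean. For ATENSPM11 it was 5.08 normalised reads against 12.6 from counting, and for ATENSPM9 and ATENSPM6 3.14 against 2.81 and 2.71 against 2.92. For ATENSPM7, on 2 wild-type reads, it was 0.64 against 0.92. It was larger than counting for ATENSPM5, at 15.0 against 7.70, for ATENSPM10, at 11.5 against 6.57, and for ATENSPM1A, at 4.05 against 2.41. In caa39 it was larger for ATENSPM11, at 61.6 against 27.5, and for ATENSPM1A, at 12.3 against 7.54. In all other members it was smaller in caa39, at 0.71 against 3.31 for ATENSPM7 and 7.08 against 11.3 for ATENSPM5. For ATENSPM6 it was 2.25 against 5.60, for ATENSPM9 4.93 against 5.75 and for ATENSPM10 4.02 against 4.16. With 3 libraries per genotype an SD is itself imprecise, and these comparisons were not tested. Wild-type library b held the lowest values of ATENSPM5, ATENSPM1A and ATENSPM6 in its genotype, the last on 5 reads, as many as library c. It held the highest values of ATENSPM9, ATENSPM10 and ATENSPM7, the last on 1 read, as many as library a. For ATENSPM6 and ATENSPM7 these libraries thus differ only by size factor.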
